A study of Mus musculus with 118 samples.

Results

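The immediate early genes Fos, Fosb, Junb, Jun, Egr1, Arc, Nr4a1, Npas4, Dusp1 and Ier2 were followed in single SOM+ (somatostatin) interneurons that had been patched, recorded and then aspirated. The 10 genes were chosen as a list by name, and each had 1 entry among the 23998 gene symbols of the deposited counts. The data come from Patch-seq, in which the electrical behaviour of a neuron is recorded in a brain slice through a pipette and the contents of the same cell are drawn into the pipette for RNA sequencing. All cells came from adult SOM-Cre/Ai9 mice, in which Cre driven from the Sst gene switches on the red protein tdTomato, so that cells which express Sst, or did so earlier in life, are marked. No cell received a treatment. The cells differ by cortical area, primary visual cortex (V1) or primary somatosensory cortex (S1), and by layer, L4 or L5. In L4, 42 cells of V1 and 34 of S1 were kept, in L5 17 of V1 and 16 of S1, and 9 sequenced cells were left out. To be kept, a cell needed 1500 or more detected genes, counts of Slc17a7, a transporter of excitatory neurons, no higher than those of Gad1 and Gad2 together, which make GABA, and at least 1 count of Sst.

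Immediate early genes are transcribed within minutes of a stimulus and need no new protein for it. In neurons, calcium entry and kinase signalling act on factors already bound to their promoters, among them CREB and the serum response factor. Some of their products are transcription factors that go on to switch on later genes, and others act at synapses or shut the signal down. Cutting a slice, keeping it in a bath, driving a cell with current and drawing out its contents are all stimuli, and every cell here went through all of them. The data hold no cell taken from intact tissue or left unrecorded, so the levels below could not be set against an unstimulated state.

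The sequences just upstream of the transcription start are shown because CREB binds a short element, the cAMP response element (TGACGTCA, both strands), whose half-site is TGACG on one strand and CGTCA on the other. Promoters from RefSeq (GRCm38.p6, the same assembly as mm10) were taken for 7 of the 10 genes, namely Fos, Fosb, Junb, Jun, Nr4a1, Npas4 and Dusp1. No promoter of Egr1, Arc or Ier2 was used, so the matches counted below do not cover these genes. Each run below holds the 250 bases before the start, 5′ to 3′ on the strand of the gene, with half-sites in capitals, and Jun is shown as the 1 promoter of the 7 without one. The windows are chr12:85473640-85473889 on the plus strand for Fos, chr15:101266596-101266845 (plus) for Nr4a1, chr19:4989972-4990221 (minus) for Npas4, chr17:26508473-26508722 (minus) for Dusp1 and chr4:95052223-95052472 (minus) for Jun. Those of Nr4a1, Npas4 and Dusp1 lie inside the span of the gene in the GENCODE annotation, which also has a start farther upstream.
Fos: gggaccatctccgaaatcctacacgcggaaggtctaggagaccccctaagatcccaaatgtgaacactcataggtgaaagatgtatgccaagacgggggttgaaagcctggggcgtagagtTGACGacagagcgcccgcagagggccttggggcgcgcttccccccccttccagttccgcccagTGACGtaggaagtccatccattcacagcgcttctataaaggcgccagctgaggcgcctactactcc
Nr4a1: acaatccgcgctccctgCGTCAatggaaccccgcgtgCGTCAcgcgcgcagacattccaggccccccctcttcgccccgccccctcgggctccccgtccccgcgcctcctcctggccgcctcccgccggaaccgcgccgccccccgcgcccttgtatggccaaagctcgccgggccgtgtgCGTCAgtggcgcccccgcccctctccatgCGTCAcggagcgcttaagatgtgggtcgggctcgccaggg
Npas4: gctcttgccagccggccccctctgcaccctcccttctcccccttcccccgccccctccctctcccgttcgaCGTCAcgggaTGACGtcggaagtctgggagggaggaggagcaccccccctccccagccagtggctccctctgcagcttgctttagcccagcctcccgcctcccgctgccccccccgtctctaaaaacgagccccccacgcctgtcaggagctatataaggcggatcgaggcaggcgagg
Dusp1: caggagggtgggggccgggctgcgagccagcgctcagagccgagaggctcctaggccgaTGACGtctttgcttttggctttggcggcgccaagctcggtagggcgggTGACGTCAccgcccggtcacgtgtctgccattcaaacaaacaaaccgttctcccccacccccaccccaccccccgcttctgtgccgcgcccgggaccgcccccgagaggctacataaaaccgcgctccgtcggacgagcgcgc
Jun: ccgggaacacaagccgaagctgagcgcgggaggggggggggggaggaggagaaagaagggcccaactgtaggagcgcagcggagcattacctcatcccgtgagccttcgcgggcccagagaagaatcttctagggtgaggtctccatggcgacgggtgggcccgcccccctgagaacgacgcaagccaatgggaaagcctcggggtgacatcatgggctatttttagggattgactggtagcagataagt

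Half-sites were found in 6 of the 7 promoters, and in 17.8% of the 32851 mouse promoters of the same length in the table. Nr4a1 held 4 of them, Dusp1 3, Fos and Npas4 2 each, and Fosb and Junb 1 each. The full element was found in 1 promoter, that of Dusp1, beginning at position −143 from the start, and in 1.55% of all promoters. Its letters contain 2 of the 3 half-sites counted for Dusp1, 1 on each strand. The letters TATAAA (both strands) stood in 1 of the 7, at position −33 of Fos, against 12.4% of all promoters. Neither the AP-1 element TGANTCA nor the CArG box, the element of the serum response factor, was found in any of the 7 windows, against 6.75% and 1.47% of all promoters. The median GC content was 68.4% for the 7 and 52.4% for all promoters. These matches describe letters in a short window, and no binding was measured.

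Depth set the precision of each value. The kept cells had 97904 to 3295232 counts (median 1111833) and 1978 to 9200 detected genes (median 6322). The libraries carried no molecular identifiers. The 95% Clopper-Pearson intervals given for shares of cells treat cells as independent and cover counting error only. Overlap of these intervals does not show that groups are alike. Levels are given in CPM, counts scaled to a total of 1000000 per cell, and differences as differences of mean log2(CPM + 1). RPKM, which also divides by gene length, is used wherever one gene is compared with another. Since no label gives the animal of a cell, an area and layer together make 1 sample, and cells gave no p-values. The 9 dates in the labels, taken as recording days and numbered in order, gave the only measure of repetition. The dates outnumber the mice that the study's methods name for these cells, so the days cannot all stand for separate animals. Days 1 to 6 form a first series and days 7 to 9 a later second series, which holds L4 cells only.

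Most of the 10 genes were present in nearly every cell. Fos, a component of the AP-1 transcription factors, was detected with at least 1 count in all kept cells but 1 (99.1%, interval 94.99 to 99.98%). Egr1, a zinc finger transcription factor, was likewise missing from 1 cell, and Fosb was detected in 98.2% of cells, Jun in 95.4%, Junb in 94.5% and Dusp1 in 93.6%. The other genes were missing from more cells. Arc, whose product acts at synapses, was detected in 83 cells (76.1%, 67.0 to 83.8%). Ier2, a nuclear protein of the early response, was detected in 82 cells (75.2%, 66.0 to 83.0%). Nr4a1, an orphan nuclear receptor, was detected in 73 cells (67.0%, 57.3 to 75.7%). Npas4, a transcription factor that responds to calcium entry, was detected in 45 cells (41.3%, 31.9 to 51.1%). With cells thinned to 250000 counts, which left out 3 shallower cells, Arc stood at 78.3%, Ier2 at 76.4%, Nr4a1 at 66.0% and Npas4 at 36.8%.

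Per unit of gene length, Fos ranked among the most abundant transcripts of these cells. Its median of 803 RPKM was the 22nd highest of the 23998 symbols, and it stood among the 100 highest genes of its own cell in 83 cells (76.1%). Egr1 followed with a median of 376 RPKM (69th, and in the top 100 of 46 cells) and Dusp1 with 319 RPKM (top 100 of 44 cells). Junb had a median of 142.5 RPKM, Jun 122.3, Fosb 61.1, Arc 56.6, Ier2 47.4 and Nr4a1 24.9, and Npas4 had a median of 0. In RPKM within the same cell, Fos was higher than Egr1 in 86.2% of cells, Dusp1 higher than Junb in 79.8% and Jun higher than Fosb in 78.0%. Egr1 was higher than Dusp1 in 70 cells and lower in 39, Ier2 higher than Nr4a1 in 66, lower in 30 and equal in 13, and Nr4a1 higher than Npas4 in 66, lower in 16 and equal in 27. Junb was higher than Jun in 58 cells and lower in 51, Fosb higher than Arc in 59, lower in 49 and equal in 1, and Arc higher than Ier2 in 52, lower in 45 and equal in 12. The pairs named in the last sentence had no steady order, with the first-named gene higher in 47.7% to 54.1% of cells.

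Among the Fos family, Fos itself ranged widely in each group. In V1 L4, the lowest, median and highest cells held 25.4, 2031 and 5451 CPM, and those of S1 L4 held 22.97, 2121 and 5355 CPM. For L5 the values were 0, 1204 and 3063 CPM in V1 and 7.79, 999.9 and 3585 CPM in S1. The ranges of the 4 groups overlapped. The V1 L5 median lay above the first quartile of V1 L4 cells, 723.9 CPM. The S1 L5 median lay below the first quartile of S1 L4 cells, 1194 CPM. Here and for the genes below, L4 cells span both series and L5 cells come from the first alone. Within the first series the L5 minus L4 difference of mean log2 for Fos was −0.44 in V1 and −0.67 in S1. Fosb, a close relative of Fos and a partner of the Jun proteins, had L4 medians of 279.6 CPM in V1 (9.36 to 1298) and 213 CPM in S1 (0 to 729), and L5 medians of 198 CPM in V1 (13.4 to 354) and 153.4 CPM in S1 (15.3 to 602).

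The Jun proteins pair with Fos proteins to form AP-1. Jun had L4 medians of 422 CPM in V1 and 519.9 CPM in S1, and L5 medians of 393 CPM in V1 and 171.8 CPM in S1. Its highest cell, in V1 L4, reached 9094 CPM, while the highest cells of S1 L4, V1 L5 and S1 L5 held 2268, 931 and 565 CPM. Junb, which can hold back the activity of Jun, had medians of 305, 249, 255 and 219 CPM in the same order and was at 0 in 1, 3, 2 and 0 cells. The groups overlapped for both genes. Within the first series the L5 minus L4 difference of mean log2 for Jun was −0.51 in V1 and −1.48 in S1. For Junb it was −1.35 in V1 and 1.17 in S1.

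The lowest, median and highest L4 cells for Egr1 held 0, 1242 and 3556 CPM in V1 and 8.99, 1194 and 4794 CPM in S1. The L5 cells held 295, 1113 and 2150 CPM in V1 and 22.03, 686 and 1930 CPM in S1. Egr1 was evenly high in V1 L5, where its SD over cells was 0.92 on the log2 scale, against 1.61 to 2.09 in the other groups. Nr4a1 and Npas4 were at 0 in some cells and high in others. Nr4a1 was at 0 in many cells of every group but reached 1020 CPM (V1) and 1005 CPM (S1) in L4, and 160.4 CPM (V1) and 296 CPM (S1) in L5. Nr4a1 was detected in 33 of 42, 20 of 34, 10 of 17 and 10 of 16 cells of V1 L4 and S1 L4 and then V1 L5 and S1 L5. Npas4 was detected in 19 of 42, 16 of 34, 4 of 17 and 6 of 16 cells, in the same order, and it reached 1079 CPM in V1 L4 and, in S1 L4, 320 CPM. The intervals of the Npas4 shares overlapped between all groups, which does not show that the groups are alike. They ran from 29.8 to 61.3% in V1 L4 and from 6.81 to 49.9% in V1 L5. With cells thinned to the same total count, Npas4 was detected in 18 of 42 cells of V1 L4 and 15 of 34 of S1 L4. In L5 it was then detected in 1 of 15 cells of V1 and 5 of 15 of S1. A difference between groups was not tested, since each area and layer is 1 sample.

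Arc and Dusp1 act at synapses and on the signal rather than as transcription factors. Arc had L4 medians of 175.2 CPM in V1 (0 to 1729) and 241.5 CPM in S1 (0 to 1437), and L5 medians of 34.7 CPM in V1 (0 to 273) and 59.6 CPM in S1 (0 to 1730). It was detected in 32 of 42, 30 of 34, 11 of 17 and 10 of 16 cells, so the L5 groups also had larger shares of cells at 0. The L4 cells here span both series, and Arc was higher in the second, which holds no L5 cell. Within the first series the L5 minus L4 difference of mean log2 for Arc was −0.33 in V1 and −1.21 in S1. Dusp1, a phosphatase that switches off MAP kinases and so ends the signal, had medians of 647, 828, 496 and 354 CPM. Dusp1 was at 0 in 4, 1, 1 and 1 cells. Ier2 had medians of 123.4, 82.9, 41.8 and 63.0 CPM and a highest cell of 1271 CPM in V1 L4.

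**Figure D1:**
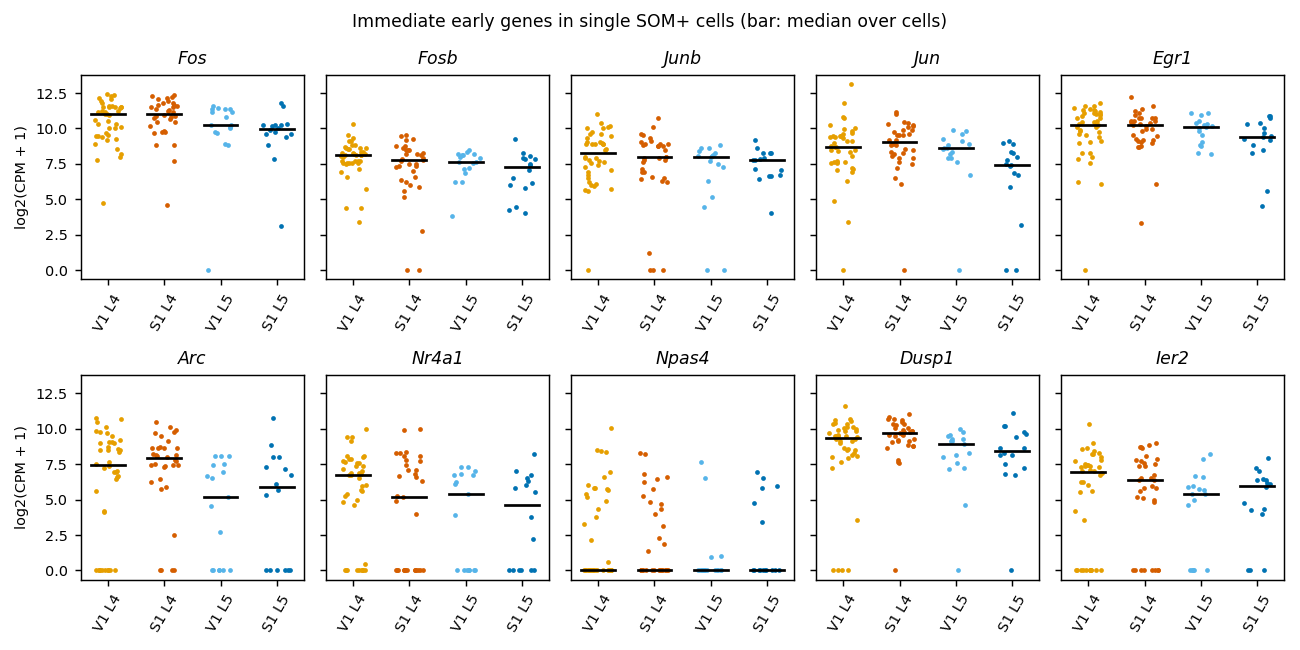
Level of each gene in every kept cell by area and layer, as log2(CPM + 1), with 1 point a cell and the median as a bar. Fos and Egr1 lie high in nearly all cells, while Arc, Nr4a1, Npas4 and Ier2 divide into cells at 0 and cells well above it, with Npas4 at 0 in most.

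Several of the genes were present in each cell. A cell held between 3 and 10 of them, with a median of 9, and all 10 were detected in 25 cells (22.9%, 15.4 to 31.97%). Calling a gene high at 50 CPM or more, 93.6% of cells (87.2 to 97.4%) had at least 5 of the 10 high, and 10 cells had all 10 high. Fos, Egr1, Fosb, Jun, Junb and Dusp1 were each detected in 93.6% or more of cells, so such totals follow largely from the single shares. No expectation from those shares was set beside them. The share with at least 5 high was similar in the 4 groups, at 92.9% (V1) and 94.1% (S1) in L4 and 94.1% (V1) and 93.8% (S1) in L5. All 10 were detected in 12 of 42, 8 of 34, 2 of 17 and 3 of 16 cells. The intervals overlapped between groups, and a difference between groups was not tested. Arc and Nr4a1 were found together in 64 cells and both absent in 17, and Nr4a1 and Npas4 together in 36 and both absent in 27.

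**Figure D2:**
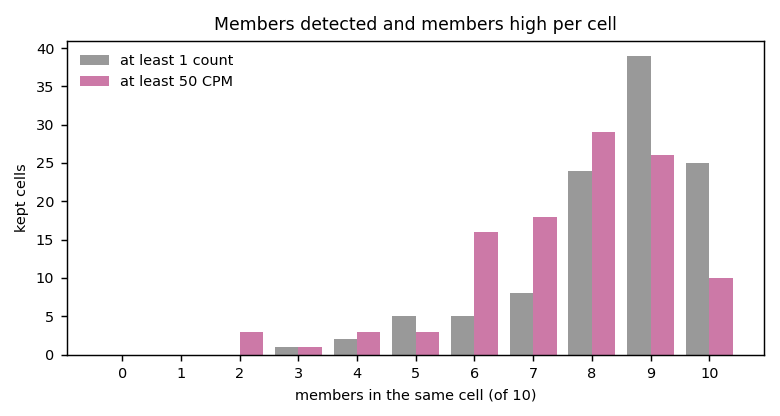
Number of kept cells by how many of the 10 genes they held with at least 1 count (grey) and at 50 CPM or more (pink). No cell held fewer than 3 with a count, and the counts pile up at 8, 9 and 10.

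Some cells held few of the genes. A V1 L5 cell of day 5 held 3 of the 10 genes and lacked Fos, Jun, Arc, Nr4a1, Npas4, Dusp1 and Ier2, and it was also shallow, with 149024 counts and 2951 detected genes. An S1 L4 cell of day 2 lacked Fosb, Junb, Arc, Nr4a1, Npas4 and Dusp1 at 1001189 counts, a depth near the median. Of the 6 cells with the lowest mean level of the 10 genes, 4 were recorded on day 2. At the other end, the highest cell was a V1 L4 cell of day 6 with only 396672 counts, in which all 10 genes were high.

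Levels of the genes also moved together from cell to cell. Over all kept cells, the 45 pairs had Spearman rho of 0.16 (Arc with Npas4) to 0.64 (Fos with Jun and Fos with Egr1), with a median of 0.39. Genes past a filter (32 or more counts in 10 or more of the cells) formed 49925028 pairs, whose median was 0.05 and the 95th percentile 0.24, and 42 of the 45 pairs lay above it. The strongest links joined the abundant transcription factors, and Npas4 had rho of 0.16 to 0.43 with the others. The cells share libraries, depth and recording days, so these correlations are descriptions. Here and below, the background of all genes was not matched to the named genes for abundance or detection. With each cell centred within its day, area and layer the median of the 45 was 0.28 (−0.02 to 0.63), with 44 above 0, where pairs of all genes treated alike had a median of 0.07 with 71.9% above 0. Of the 45, 25 then lay above the 95th percentile of all pairs, 0.28, so fewer stood apart than without centring. Given the number of detected genes the median was 0.36 (0.14 to 0.60), against 0.00 over all pairs, and 43 of the 45 lay above their 95th percentile of 0.18.

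**Figure D3:**
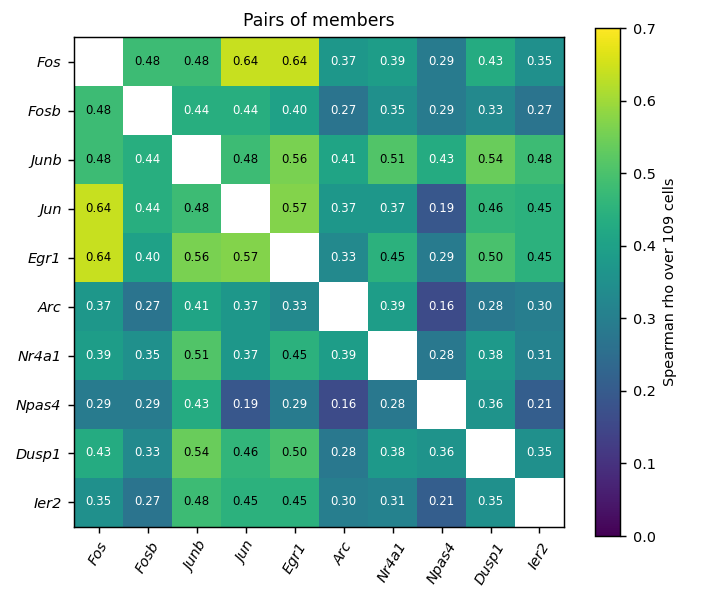
Spearman rho over kept cells for each pair of the 10 genes, from 0 (dark) to 0.7 (light). Fos with Jun and Fos with Egr1 (both 0.64) are the lightest squares, and Arc with Npas4 (0.16) is the darkest.

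To follow the genes as a unit, their mean log2(CPM + 1) in a cell was taken as a score. It ran from 2.01 to 10.04 with a median of 7.03 over all cells. It had a rho of 0.44 with the number of detected genes and 0.34 with the total count, so deeper cells scored higher. The single genes had rho of 0.09 (Npas4) to 0.41 (Egr1) with the number of detected genes, on both sides of the median of 0.23 over all genes past the filter. Its rho with the sample number in the label, whose meaning is not stated, was −0.10, and within days it lay between −0.56 (day 5, 14 cells) and 0.21 (day 9, 7 cells).

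Other genes known to follow neuronal activity moved with the score. Of 36 such genes 31 passed the filter, and all 31 had a rho above 0 with the score, which was so for 80.2% of the 9983 genes past the filter besides the 10. Their median rho was 0.32 against 0.11 over all genes, and 18 of the 31 lay above the 95th percentile of 0.29. The highest were Egr4 (0.51) and Egr3 (0.48), relatives of Egr1, and Gadd45g (0.50), a stress and demethylation factor. The lowest were Per1, a clock gene (0.06), Ptgs2, which makes prostaglandins (0.03), and Crem, a CREB relative (0.01). Within day, area and layer, all 31 were again above 0, with a median of 0.27 against 0.15.

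The 10 regulators listed as upstream had a median rho of 0.11 with the score, the same as the median of all genes, and 8 of the 10 were above 0, a share near the 80.2% of all genes. Camk4, a calcium-dependent kinase, stood at 0.33, Mef2c at 0.28 and Mef2a at 0.19, both transcription factors of activity, while Elk1, a partner of the serum response factor, stood at −0.00 and Camk2a, a kinase of synaptic plasticity, at −0.22. Transcript levels of kinases and bound factors say nothing of their activity. Of the 8 heat shock genes, 6 passed the filter and all 6 were above 0 (median 0.27, against 0.11 and 80.2% above 0 for all genes), led by the chaperones Hspa1a (0.40) and Hspa8 (0.39) and the co-chaperone Dnajb1 (0.31).

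The 10 genes outside these 10 whose levels tracked the score most closely were Nefl (rho 0.61), Egr4 (0.51), Gadd45g (0.50), Fam58b (0.49), Sntg1 (0.49), Ccdc184 (0.49), Egr3 (0.48), Dlx1as (0.48), Zfp385a (0.47) and Spry4 (0.47), over all kept cells. With the number of detected genes these had rho of 0.18 (Sntg1) to 0.54 (Zfp385a), and Nefl had 0.43. All but Sntg1 lay above 0.23, the median over all genes past the filter. The part of depth in their links to the score was not tested. Fam58b was detected in 45 cells and Spry4 in 51, each with a median of 0 CPM. Nefl encodes the light neurofilament chain of axons and stood above the 31 other activity genes. Centred within day, area and layer, Nefl (0.55, rank 7) and Sntg1 (0.52, rank 10) remained among the 10 closest genes. Egr3 was then at 0.46 (rank 69), Egr4 at 0.42 (rank 190), Spry4 at 0.41 (rank 238), Dlx1as at 0.35 (rank 690) and Gadd45g at 0.34 (rank 766). The summed levels of 6 marker lists for other cell types (excitatory neurons, astrocytes, microglia, oligodendrocytes, endothelium and pericytes) had rho between −0.05 and 0.16 with the score, and other interneurons 0.13. Microglial genes were present, with a median summed level of 76.4 CPM (0 to 3284) over all cells, and oligodendrocyte genes at 215 CPM (0 to 9702), whereas the excitatory, astrocyte, endothelial and pericyte lists had medians of 0, and Kcnj8 of the pericyte list was at 0 in every cell.

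The study set L4 of one primary sensory area against another, so the genes were compared between V1 and S1. In L4 the scores did not differ beyond the spread of days. The mean score was 7.24 (SD 1.65 over 42 cells) in V1 and 7.19 (SD 1.61 over 34 cells) in S1, a difference of −0.05, and within 5 days the difference averaged −0.75 with an SD of 1.23 and ran from −2.47 to 0.50. Of the 10 genes 0 were higher in S1 by at least 1 log2 unit, a size 8.12% of 9201 genes reached, and 1 was lower by as much, against 7.66%. That gene was Nr4a1 at −1.17, with day values from −8.06 to 2.13. One sign in every day was kept by 2 of the 10, against 6.76% of genes. Fosb was lower in S1 in all 5 days (difference −0.74, from −4.29 to −0.16 by day), and Dusp1 was higher in all 5 (0.98, from 0.03 to 1.43 by day). Without day 2 the difference came to −0.36 for Fosb and 0.21 for Dusp1. The oligodendrocyte list, with a median of 156 CPM (0 to 3717) for V1 L4 and 644 CPM (0 to 9702) for S1 L4, moved with area, and its part in these values was not tested.

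In L5 the mean score was 6.31 (SD 1.53, 17 cells) in V1 and 6.27 (SD 1.46, 16 cells) in S1, and the difference within 4 days averaged −0.26 with an SD of 1.22. By at least 1 log2 unit, 1 gene was higher in S1 and 1 was lower, 2 of the 10 in all, where 33.6% of genes differed by as much either way. The higher gene was Npas4 (1.14), which did not pass the filter on counts in L5, and the lower was Jun (−1.59, from −5.31 to 0.27 by day). None of the 10 kept one sign in all 4 days, against 15.8% of genes.

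**Figure D4:**
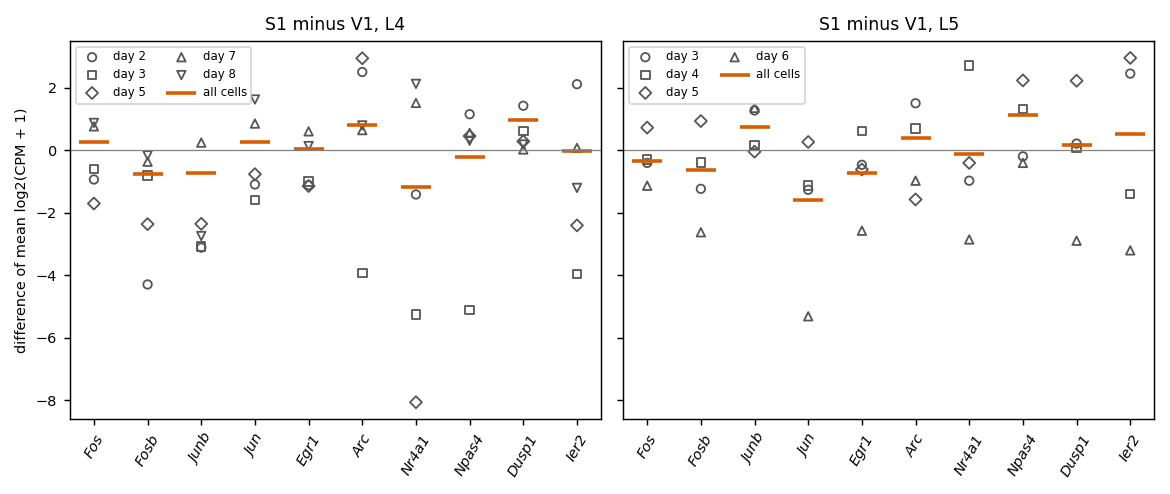
Difference S1 minus V1 of the mean log2(CPM + 1) of each gene in L4 (left) and L5 (right), over all cells (bar) and within each day that had 2 or more cells of both areas (open symbols). Most genes have days on both sides of 0, Nr4a1 in L4 spans −8.06 to 2.13, and Fosb and Dusp1 in L4 keep one sign in 5 of 5 days.

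Between layers the comparison was kept to the first series, which holds all L5 cells. In V1 the mean score was 6.80 in L4 (21 cells) and 6.31 in L5 (17 cells), a difference of −0.49. The median summed level of 7 microglial marker genes moved with layer too, from 91.0 CPM (0 to 1512) for V1 L4 to 25.3 CPM (0 to 3284) for V1 L5, and from 190 CPM (0 to 1338) for S1 L4 to 15.7 CPM (0 to 725) for S1 L5, over both series, and its part in the layer values was not tested. Only days 3 and 5 held at least 2 cells of both layers, and there the differences were −3.16 and −2.55 (mean −2.86, SD 0.43). Those values rest on 2 and 3 L4 cells. Within both days all 10 genes were lower in L5, against 33.8% of genes lower in both. Over all cells 3 genes were lower in L5 by at least 1 log2 unit, against 15.6% of genes, and 0 were higher, against 22.3%. They were Junb (−1.35), Nr4a1 (−1.28) and Npas4 (−1.64, not past the filter). Day 2, with low scores, holds 11 of the 21 L4 cells. Without day 2 the difference in score was −1.93, and without day 5 it was −0.03.

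In S1 the mean scores were close, at 6.35 in L4 (16 cells) and 6.27 in L5 (16 cells). The difference within 3 days averaged −0.14 with an SD of 0.60. With a day left out, the difference over all cells ran from −0.53 (without day 2) to 0.36 (without day 6). By at least 1 log2 unit, 2 genes were higher in L5, against 23.3% of genes, and 2 were lower, against 9.80%. Junb (1.17) and Nr4a1 (1.22) were the higher genes, and Jun (−1.48) and Arc (−1.21) the lower. One sign in all 3 days was kept by 4 of the 10, against 27.7% of genes. These were Fos (−0.67), Jun and Dusp1 (−0.61), which were lower in L5, and Junb, which was higher.

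Recording day took a larger share of the spread than area and layer for 9 of the 10 genes. The medians of all genes stood in the same order, at 7.97% for days and 2.84% for area and layer. Single genes ranged from 6.72% of the sum of squares between days for Jun to 27.8% for Arc, where the median of all genes was 7.97% and the 95th percentile 16.4%. Egr1, Arc, Nr4a1 and Dusp1, 4 of the 10, stood above that percentile. Between the 4 groups of area and layer, Jun had the largest share, 9.97%, above the 95th percentile of 9.73% (median of all genes 2.84%), and the other 9 lay between 1.52% and 8.51%. Days took 27.5% of the sum of squares of the score and the groups 6.95%, values not set against single genes, since a mean over genes is less noisy. A division into 9 days takes a larger share by number alone than one into 4 groups, as the medians of all genes show. Days were not balanced for area and layer, so both shares contain some of the other. By day the mean score ran from 5.37 on day 2 (15 cells) to 8.11 on day 7 (21 cells). Without day 2 the share between days was 18.4%, and without day 7 it was 18.99%.

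Day 2 was singled out after its values were seen. In V1 L4, the mean of its 11 cells was lower than that of the 31 cells of other days for all 10 genes, and 8 of the 10 were lower by at least 1 log2 unit, against 33.2% of genes, while 0 were higher, against 8.74%. Arc (−3.76), Nr4a1 (−3.66), Dusp1 (−4.34) and Ier2 (−3.37) differed most, whereas Fos (−1.10), Jun (−0.78) and Fosb (−0.58) differed least. Dusp1 was detected in 10 of the 15 cells of day 2. That day also had the lowest median of detected genes, 4916, and the median difference over all genes was −0.52. The part of depth in the lower levels was not tested.

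**Figure D5:**
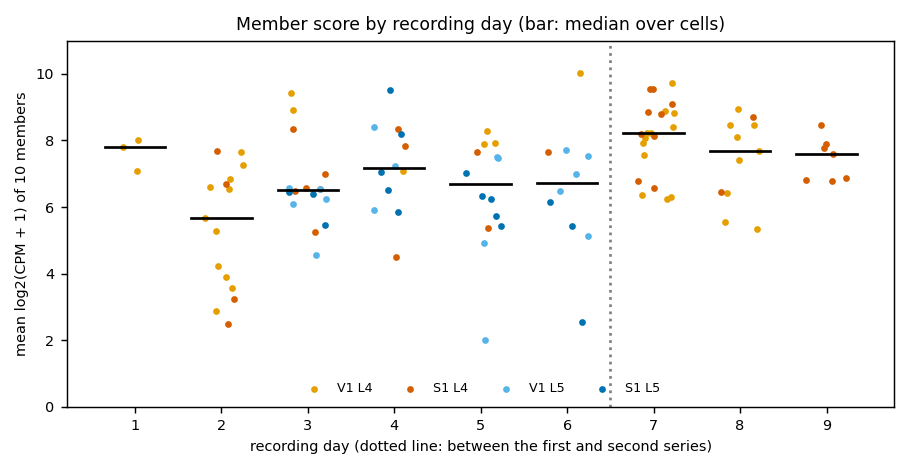
Mean log2(CPM + 1) of the 10 genes in each kept cell by recording day, with 1 point a cell coloured by area and layer and the median as a bar. Day 2 has the lowest median (5.67), days 7 to 9 hold no cell under 5, and L5 cells occur only on days 3 to 6.

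On other days single genes went their own way. On day 1, with 3 V1 L4 cells, Npas4 was present in 3 of 3 cells at a mean log2 level of 6.14 and Nr4a1 at 7.17, whereas Arc was present in 1 of 3. On day 9, with 7 S1 L4 cells, Arc was present in 7 of 7, but Npas4 in 1 and Nr4a1 in 3. Arc and Npas4 thus stood in opposite order on these days, in different areas.

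Between the series, in L4, cells of the second were higher for several genes. In S1 L4 all 10 genes were higher in the second series (18 cells) than in the first (16 cells), and 8 by at least 1 log2 unit, against 14.7% of genes, with 0 lower, against 17.2%. Nr4a1 (3.44), Arc (2.31) and Junb (1.93) differed most, and Fos (0.97) and Npas4 (0.18) were under 1. The score differed by 1.59, and by 1.14 without day 2. In V1 L4 (21 cells in each) 3 genes were higher by at least 1, namely Arc (3.35), Dusp1 (2.41) and Ier2 (1.41), against 18.2% of genes, and 0 were lower, against 9.86%. The score differed by 0.87, but by −0.57 without day 2, so that in V1 the direction rested on that day. The series differ in date, and whatever else changed with the date cannot be told apart from it.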

How the data were processed

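Single cells from V1 and S1 slices were recorded by patch clamp, aspirated and sequenced from amplified full-length cDNA. Per the labels and the study's methods, the authors aligned reads to mm10 with STAR 2.4.2a (bcl2fastq 2.20 made the reads) and deposited a table of unnormalized read counts per gene and a table of RPKM values by RefSeq gene models. Both hold 24490 entries, and entries sharing a symbol were summed to 23998. Deposited counts were scaled to CPM and log2-transformed with a pseudocount of 1. RPKM served for comparing genes with each other and as an alternative. Total depth was 97904 to 3295232 counts a cell. Cells under 1500 detected genes (4), with more Slc17a7 than Gad1 and Gad2 counts combined (1) or lacking any Sst count (4) were left out. Area and layer came from the labels, days from the date in the title.

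The gene filter asked for 32 or more counts in 10 or more of the cells compared, and a difference of 1 log2 unit was the size counted. Days entered within-day values with at least 2 cells of each group, and spread is the SD over days. Thinning drew 250000 counts per cell with seed 1. The named genes are the 10 listed genes, the 10 nearest to their score, and the 3 highest and lowest of each related list. Some results under this rule are not reported here. The members and lists were chosen with earlier results of these data known. Alternatives were TMM scaling, pseudocount 10, RPKM, thinning, other cell filters and leaving out each day. R 4.3.3 with edgeR 4.0.16 (for TMM factors only), SciPy 1.17.1, pandas 2.3.3, NumPy 2.4.6 and Python 3.11.15 were used, and the scripts were tested on simulated data.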

Additional observations from a re-analysis of the deposited data

Results flagged for a closer look

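Cells left out of the comparisons also carried these genes. The 1 glutamatergic cell, from V1 L5 on day 5, held 636 CPM of Fos from 483 counts, with all 10 genes detected. The 4 S1 L4 cells without an Sst count held 2310 CPM (day 2), 956 CPM (day 3), 1722 CPM (day 4) and 870 CPM (day 5), from 2572, 1145, 4975 and 267 counts. Each lies above the 3 counts that a count of 0 allows, and each lies within the range of the kept cells.

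The L5 minus L4 difference of Junb was −1.35 in V1, lower in both days compared, and 1.17 in S1, higher in all 3. The difference between the areas was not tested.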

How the results depend on the processing

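The values that moved by more than the spread set for them were few. For differences that spread was the SD over days, and for the share with at least 5 high genes the counting interval. For the share between days it was the SD of that share over the 10 genes. For the pair correlations it was the SD over the 45 pairs, and for genes detected per cell the SD over cells. The spreads over genes, pairs and cells do not measure repetition over days. The V1 difference in score between layers (−0.49) was −2.86 as a mean within days and lay between −1.93 and −0.03 when a day was left out. The V1 L4 difference between series (0.87) was −0.57 without day 2, an alternative added after seeing the data. The share of cells with at least 5 high genes (93.6%) was 66.1% at 200 CPM. The share of the score between days (27.5%) was 38.1% in L4 cells alone and between 18.37% and 30.98% with a day left out. Among single genes, Junb in L4 was −2.21 within days and Dusp1 in L4 was 0.21 without day 2. The S1 minus V1 score in L4 (−0.05) ran from −0.38 to 0.16 with a day left out, and was −0.45 and 0.27 in the first and second series, all within the SD over days. The other alternatives, 90 of them for the main results, stayed within these spreads or the interval. Dates outnumber the mice of the study's methods, so the SD over days may be too small.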
